A study of Homo sapiens with 12 samples.

Results

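The 2 human embryonal carcinoma cell (hECC) lines NTera-2 and 2102Ep were compared by their mature miRNAs in the undifferentiated state. The comparison used 6 of the 12 samples of the series, 3 of each line, chosen because they had received the non-targeting negative control siRNA (NC, Ambion Silencer Select Negative Control #1) and not the siRNA against SOX2 (siSOX2). NTera-2 cells are a pluripotent line that can be driven to neurons and other derivatives, and 2102Ep cells are a nullipotent line that renews itself but barely differentiates. Both were labelled as embryonal carcinoma, at passage 40 to 50 (NTera-2) and 35 to 50 (2102Ep), and were grown with 10% serum. They were transfected for 6 hours and harvested at 72 hours. NTera-2 cells received 30 nM siRNA with Lipofectamine RNAiMAX and 2102Ep cells 15 nM with Lipofectamine 2000, so that the line, the agent and the dose cannot be told apart in any value below. No sample of either line without transfection was analysed here, and each line stands for itself alone, not for pluripotent or nullipotent cells in general. The 3 samples of a line were labelled as biological replicates.

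MiRNAs are short RNAs cut from a hairpin precursor. Bases 2 to 8 of the mature strand, the seed, pair with target mRNAs, so that miRNAs with 1 seed form a family whatever their genomic origin. Many hairpins lie in clusters and are made from a shared primary transcript. In hECCs and embryonic stem cells the miR-302 cluster, the miR-371 cluster and the primate-specific chromosome 19 cluster C19MC are abundant, together with the proliferation cluster of miR-17 (MIR17HG), which also holds miR-18a, miR-19a, miR-19b, miR-20a and miR-92a. The let-7 family, which is held back by LIN28 in such cells, and the miR-200 family, which represses ZEB1 and ZEB2 and so keeps cells epithelial, are known as markers of differentiation state and shape.

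Members of a family with a common seed went both ways between the lines, so the mature sequences of these families are shown first. They are taken from RefSeq (GRCh38.p14), with the seed in capitals. The strand of each assay was assigned from its name, and all 40 assays looked up had a match. Within the family of seed AAGUGCU, miR-302a to miR-302d come from chromosome 4 (miR-302d-3p at chr4:112648006-112648028, minus strand) and the others from chromosome 19, where miR-372-3p lies at chr19:53787931-53787953, miR-373-3p at chr19:53788748-53788770 and the C19MC member miR-520c-3p at chr19:53707506-53707527, all on the plus strand.
miR-302b-3p: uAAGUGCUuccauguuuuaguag
miR-302d-3p: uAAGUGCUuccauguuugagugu
miR-372-3p: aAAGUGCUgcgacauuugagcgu
miR-373-3p: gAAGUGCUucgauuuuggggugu
miR-520b-3p: aAAGUGCUuccuuuuagaggg
miR-520c-3p: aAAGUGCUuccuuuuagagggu

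In the family of seed AAAGUGC, miR-17-5p lies at chr13:91350618-91350640 (plus strand), miR-106a-5p at chrX:134170244-134170266 (minus strand), miR-106b-5p at chr7:100094043-100094063 (minus strand) and the C19MC member miR-519d-3p at chr19:53713400-53713421 (plus strand).
miR-17-5p: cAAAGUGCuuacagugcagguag
miR-106a-5p: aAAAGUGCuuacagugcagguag
miR-106b-5p: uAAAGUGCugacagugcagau
miR-519d-3p: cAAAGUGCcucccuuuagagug

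The miR-200 family has the seeds AAUACUG and AACACUG. MiR-200b-3p (chr1:1167160-1167181), miR-200a-3p (chr1:1167916-1167937) and miR-429 (chr1:1169055-1169076) form one cluster on the plus strand, and miR-200c-3p (chr12:6963742-6963764) and miR-141-3p (chr12:6964155-6964176) the other.
miR-200b-3p: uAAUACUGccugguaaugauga
miR-200c-3p: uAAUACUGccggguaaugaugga
miR-429: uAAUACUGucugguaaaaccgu
miR-200a-3p: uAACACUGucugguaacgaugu
miR-141-3p: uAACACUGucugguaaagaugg

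Further sequences belong to the miRNAs with the largest differences and their seed partners. MiR-1271-5p (chr5:176367960-176367981, plus strand) shares its seed with miR-96-5p (chr7:129774739-129774761, minus strand), while miR-1298-5p lies in the HTR2C gene region at chrX:114715250-114715271 (plus strand) and miR-296-5p in the imprinted GNAS region at chr20:58817661-58817681 (minus strand).
miR-1298-5p: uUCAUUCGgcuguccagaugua
miR-296-5p: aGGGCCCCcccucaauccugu
let-7b-5p: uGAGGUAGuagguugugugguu
miR-1271-5p: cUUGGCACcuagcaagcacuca
miR-96-5p: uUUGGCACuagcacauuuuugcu
miR-29b-3p: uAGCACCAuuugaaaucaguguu
miR-29c-3p: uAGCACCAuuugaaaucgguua

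MiRNAs were measured by qRT-PCR on TaqMan array cards A and B after pre-amplification. A value is the threshold cycle (raw Ct), on the log2 scale, where 1 cycle less is about 2 times as much RNA, and a raw Ct of 40 is the last cycle. Of 501 assays, 431 to 432 were measured (raw Ct under 40) per 2102Ep sample and 449 to 451 per NTera-2 sample, and 382 in all 6 samples. Levels of samples of one line correlated across assays with r = 0.971 to 0.978 in 2102Ep and 0.941 to 0.977 in NTera-2 cells, against 0.606 to 0.719 between the lines. Each raw Ct was set against the sample's mean over the 231 (card A) or 151 (card B) assays measured in all samples, with the sign turned, so that a positive difference means more in NTera-2 cells.

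The direction of a difference is therefore relative to the average miRNA. On card A that average crossed at 24.1 to 24.3 in 2102Ep and 24.1 to 24.8 in NTera-2 cells. On card B it crossed at 23.7 to 24.3 and, without overlap, at 24.3 to 24.6. The control RNAs lay farther apart, and the other way. U6, a small nuclear RNA, crossed at 14.9, 14.8 and 14.9 in 2102Ep and at 11.0, 10.7 and 10.7 in NTera-2 cells (card A). The small nucleolar RNAs also crossed earlier in NTera-2 cells, RNU44 at 17.1, 17.6 and 17.3 against 16.9, 16.1 and 15.8 and RNU48 at 18.4, 18.6 and 18.6 against 17.4, 16.2 and 16.7 (card A). Set against RNU44 and RNU48, the median of all assays moved by -1.85, and against U6 by -4.20 (233 assays of card A). By card the shift against RNU44 and RNU48 was -1.54 on card A and -2.35 on card B. MiRNAs per cell were not measured, and less of a miRNA in each cell cannot be told apart from fewer cells that hold it.

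**Figure D1:**
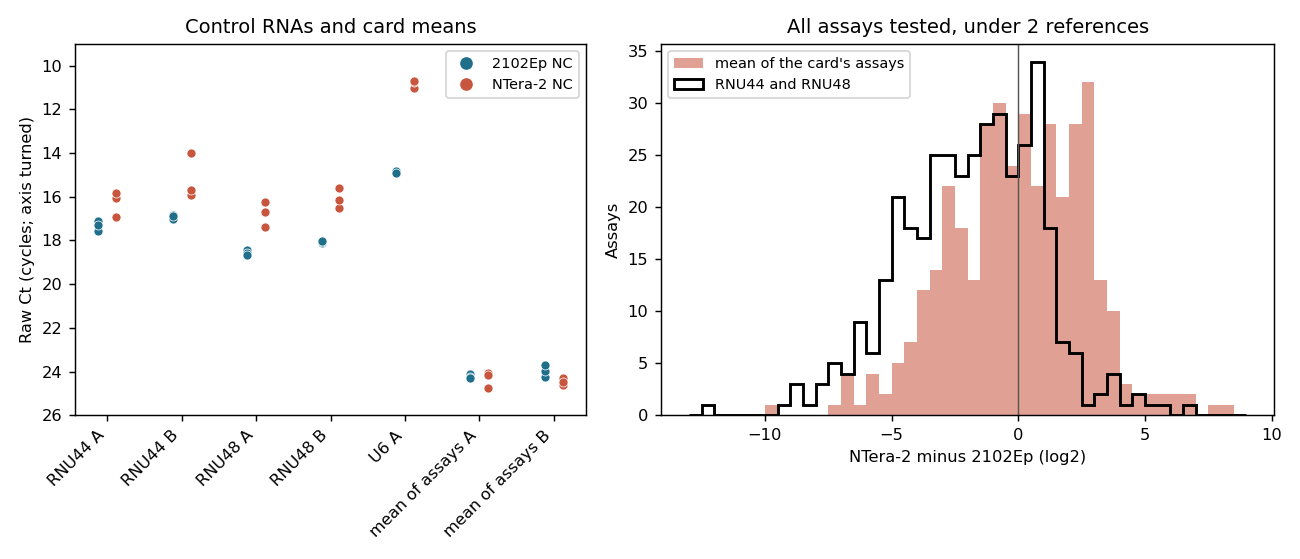
Left, raw Ct (cycles, axis turned so that more RNA is higher) of U6, RNU44 and RNU48 by card (A or B) and of the mean of the assays measured in all samples, each point 1 sample (blue 2102Ep NC, red NTera-2 NC). Right, number of assays by NTera-2 minus 2102Ep difference (log2) with the mean of the card's assays (filled) or RNU44 and RNU48 (line) as the reference. The card means of the lines overlap on card A and lie slightly apart on card B, U6 lies about 4 cycles apart, and the median difference is 0.17 with the first reference and -1.68 with the second.

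Most miRNAs differed between the lines. Of 384 assays measured in at least 2 of 3 samples of each line, 278 (72.4%) passed an adjusted p of 0.05 (limma with Benjamini-Hochberg adjustment, two-sided), 151 (39.3%) higher and 127 (33.1%) lower in NTera-2 cells. These shares are the background for every count below. The difference was over 2-fold in 262 of the 278. It was over 4 on the log2 scale in 15 higher and 25 lower assays. The samples of the lines did not overlap in 302 assays (78.6%), among them 275 of the 278. The median difference of all 384 was 0.17, and the middle part, between the quartiles, ran from -1.77 to 2.05. When RNU44 and RNU48 were the reference, 53 (13.8%) were higher and 229 (59.6%) lower, so that the share of higher among called assays went from 54.3% to 18.8%. It was 2.69% with U6 and 2.16% with the deposited dCt, whose card B reference crossed at 24.3 to 24.7 in 2102Ep but at 16.4 to 16.9 in NTera-2 cells and was not traced to named RNAs in 2102Ep cells. All 127 lower calls were also lower calls with RNU44 and RNU48. That reference moved the differences of each card down together, so lower calls went further from 0 and their survival is no test of them. Of the 151 higher calls, 104 stayed above 0 (53 past the test) and 47 turned below 0 (14 past the test). Where a higher call named below turned with RNU44 and RNU48, this is given beside it. With U6, 82 of the 168 calls of card A took the other sign, and only 6 assays were called higher. Turns with U6 are not given by assay, so higher calls below hold relative to the average miRNA and not relative to U6.

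**Figure D2:**
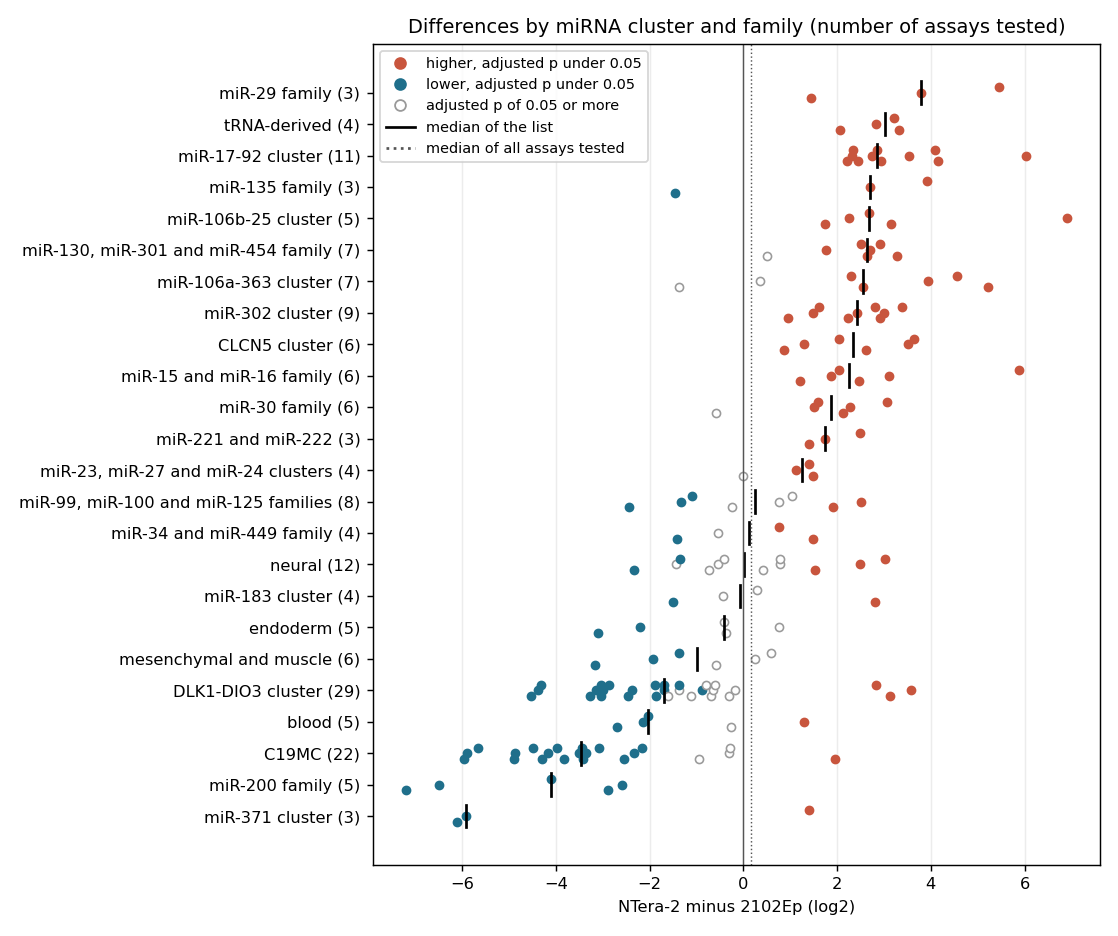
NTera-2 minus 2102Ep difference (log2) of each assay in the lists with at least 3 assays tested, relative to the average miRNA. Filled points passed the test (red higher, blue lower), open points did not, black bars are list medians and the dotted line is the median of all 384 assays. C19MC, the miR-200 family and most of the miR-371 cluster lie on the left, and the miR-17 cluster (listed by its first and last member), its paralogs and the miR-302 cluster on the right.

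All 8 pluripotency markers looked at were measured in every sample of both lines, but their clusters went in opposite directions. All 9 assays of the miR-302 cluster, which lies within the LARP7 gene and is driven by OCT4 and SOX2 in stem cells, were higher in NTera-2 cells (median 2.42), with no overlap in any. MiR-302b crossed at 16.1, 16.3 and 16.3 in 2102Ep and at 14.2, 13.8 and 13.8 in NTera-2 cells, where only assays with a very early Ct (described below) came before it. This was a difference of 2.42 (SE 0.21, 5.37-fold, adjusted p = 9.0e-05). MiR-302d, from the same transcript, crossed at 17.7, 17.3 and 17.2 against 14.9, 13.9 and 14.8, a difference of 3.38 (SE 0.27, adjusted p = 7.5e-05). MiR-367, which closes the cluster and has another seed, differed by 2.24 (SE 0.24, adjusted p = 0.00022). The smallest difference was that of the minor strand miR-302b*, 0.94 (adjusted p = 0.030), and this call was lost when any sample but NTera-2 replicate 2 was left out. Against RNU44 and RNU48, 6 of the 9 stayed above 0, and 3 passed as higher (miR-302b, miR-302c and miR-302d) and 2 as lower (miR-302b* and miR-302c*), with miR-302a at -0.05.

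The miR-371 cluster was divided within itself. It lies beside C19MC and its miRNAs are established serum markers of germ cell tumours. MiR-372, which represses the tumour suppressor LATS2, crossed at 16.7, 16.7 and 16.8 in 2102Ep cells, among their strongest assays, and at 23.7, 22.1 and 23.0 in NTera-2 cells. The lines were far apart, by -6.12 (SE 0.31, 69.7-fold lower in NTera-2, adjusted p = 1.9e-05). MiR-371-3p crossed at 19.2, 19.1 and 19.1 against 25.6, 24.4 and 25.4, a difference of -5.92 (SE 0.29, 60.4-fold lower, adjusted p = 1.9e-05). MiR-373, whose seed is that of miR-372 and whose hairpin is the next one along, went the other way. It crossed at 20.0, 20.7 and 20.5 in 2102Ep and at 20.0, 18.7 and 18.7 in NTera-2 cells. Relative to the card mean the lines did not overlap, and miR-373 was 2.62-fold higher in NTera-2 cells (1.39, SE 0.30, adjusted p = 0.0053). Against RNU44 and RNU48 its difference was -0.15 (adjusted p = 0.62), still far from those of its neighbours, which were -7.66 and -7.46. In the siSOX2 samples it was 1.43 higher (adjusted p = 0.014), and the difference of miR-372 was -6.99.

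C19MC, an imprinted cluster that is otherwise active mainly in placenta, was lower in NTera-2 cells almost throughout. Of its 22 assays tested 18 were lower and 1 was higher, with a median of -3.47, and 16 further assays had a Ct in all 2102Ep samples and none in NTera-2 samples. There was no C19MC assay for which only NTera-2 cells had a Ct. MiR-517c crossed at 20.5 in each 2102Ep sample and at 27.0, 26.5 and 26.4 in NTera-2 cells, a difference of -5.96 (SE 0.21, 62.3-fold lower, adjusted p = 7.7e-06). MiR-519a crossed at 20.6, 20.4 and 20.8 against 27.0, 26.1 and 26.1, a difference of -5.66 (SE 0.23, adjusted p = 1.4e-05). MiR-512-3p crossed at 18.99, 19.23 and 19.13 against 24.24, 24.30 and 23.83 and differed by -4.89 (SE 0.27, adjusted p = 2.1e-05). The 3 that did not pass were miR-523 (-0.95), miR-518d (-0.31) and miR-516-3p (-0.28), named here once their values were known. The exception was miR-515-3p, weak in both lines, which crossed at 29.5, 29.8 and 29.4 in 2102Ep and 27.9, 28.3 and 27.0 in NTera-2 cells. It was higher by 1.95 (SE 0.39, adjusted p = 0.0037), and by 0.41 with RNU44 and RNU48 (adjusted p = 0.40). Mature C19MC miRNAs are near copies of each other, as the printed miR-520b-3p and miR-520c-3p show, so that 1 assay may read several of them. By position, 15 hairpins between MIR519E and MIR522 (chr19:53679940-53751297) had 15 assays tested, of which 13 were lower and 0 higher.

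Seen by seed, the family AAGUGCU held 5 higher assays (miR-302a, miR-302b, miR-302c, miR-302d and miR-373) and 4 lower ones (miR-372, miR-520b, miR-520c-3p and miR-520d-3p), and miR-520a and miR-520e had a Ct in 2102Ep cells only. In 2102Ep cells miR-372 and miR-302b crossed at close cycles, with mean raw Cts of 16.7 and 16.2. In NTera-2 cells the means were 22.9 and 13.9. MiR-520b differed by -3.50 (SE 0.29, adjusted p = 8.0e-05) and miR-520c-3p by -3.08 (SE 0.46, adjusted p = 0.00098). The family AAAGUGC was divided in the same manner, with 6 assays higher and miR-519d of C19MC lower. MiR-519d crossed at 23.8, 23.2 and 23.8 in 2102Ep and at 28.5, 28.3 and 29.0 in NTera-2 cells, a difference of -4.87 (SE 0.35, adjusted p = 5.8e-05). These seeds differ by a shift of 1 base, as the aligned capitals show.

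**Figure D3:**
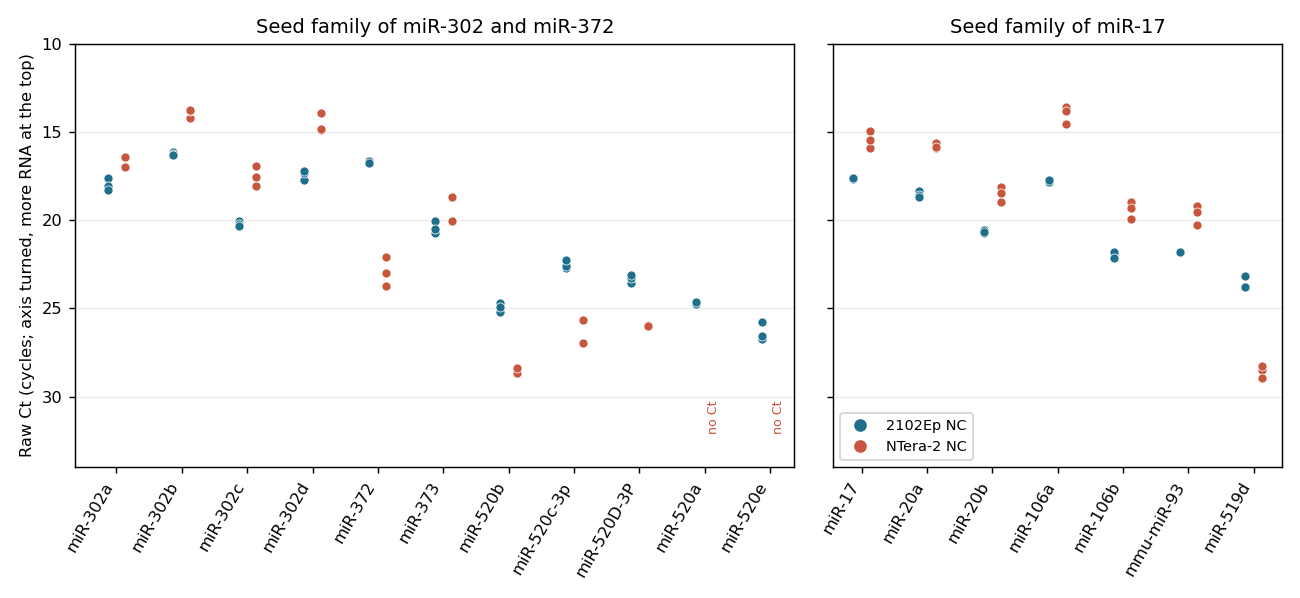
Raw Ct (cycles, axis turned so that more RNA is higher) of the assays with the seed of miR-302 and miR-372 (left) and of miR-17 (right), each point 1 NC sample (blue 2102Ep, red NTera-2). The miR-302, miR-17, miR-20 and miR-106 members lie higher in NTera-2 cells and miR-372, the miR-520 members and miR-519d lie higher in 2102Ep cells, and miR-520a and miR-520e had no Ct in NTera-2 cells.

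The miR-17 cluster and both of its paralogs were higher in NTera-2 cells. These clusters are targets of MYC and promote proliferation. All 11 assays of the miR-17 cluster tested were higher, without overlap (median 2.86), and 10 of the 11 stayed above 0 with RNU44 and RNU48, 8 of them past the test. The minor strands miR-17* (6.02), miR-19b-1* (4.14) and miR-18a* (4.09) led the list, and miR-19a* and miR-92a-2* had a Ct in NTera-2 cells only. MiR-19b crossed at 16.6, 16.7 and 16.8 in 2102Ep and at 14.6, 14.1 and 14.5 in NTera-2 cells, a difference of 2.45 (SE 0.23, adjusted p = 0.00013). By position, the 7 assays of 4 hairpins from MIR17 to MIR20A (chr13:91350605-91351135) were all higher.

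In the miR-106b-25 cluster, within the MCM7 gene, all 5 assays were higher (median 2.69), and miR-25* had a Ct in NTera-2 cells only. In the X-linked miR-106a-363 cluster 5 of 7 were higher and 0 lower. MiR-106a crossed at 17.8, 17.8 and 17.7 against 14.5, 13.6 and 13.8, a difference of 3.94 (SE 0.22, 15.4-fold, adjusted p = 2.1e-05), and 2.40 with RNU44 and RNU48. MiR-18b crossed at 32.8, 31.7 and 33.3 against 28.0, 26.9 and 27.6, and was 5.23 higher (SE 0.44, adjusted p = 8.0e-05). MiR-363, which shares its seed with miR-92a, was 4.55 higher (SE 0.30, 23.5-fold, adjusted p = 4.1e-05). The minor strands miR-363* (0.36, adjusted p = 0.57) and miR-20b* (-1.38, adjusted p = 0.10) did not pass.

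The miR-200 family was lower in NTera-2 cells in all 5 assays tested, with a median of -4.11 and no overlap. MiR-200b crossed at 19.1, 19.2 and 19.2 in 2102Ep and at 27.5, 25.8 and 26.1 in NTera-2 cells. The lines were wide apart, a difference of -7.20 (SE 0.31, 147-fold lower in NTera-2, adjusted p = 1.4e-05). MiR-200a, from the same cluster, crossed at 20.8, 20.9 and 22.1 against 29.1, 27.9 and 26.9 (-6.50, SE 0.51, adjusted p = 7.5e-05). The cluster of chromosome 12 showed smaller gaps, of -4.11 for miR-200c (SE 0.24, 17.3-fold, adjusted p = 2.9e-05) and -2.59 for miR-141 (SE 0.28, adjusted p = 0.00023). The minor strand miR-141* differed by -2.89 (SE 0.79, adjusted p = 0.014), a call lost without NTera-2 replicate 3. Against this pattern stood miR-429 and miR-200a*, encoded with miR-200a and miR-200b. They had a Ct in NTera-2 cells only, at 26.3, 24.8 and 25.9 for miR-429 and at 27.9, 26.6 and 26.2 for miR-200a*, and in 2102Ep cells no Ct was given for either. A missing Ct is a blank in the table, and that no signal was present was not shown.

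MiRNAs of the miR-183 cluster, known from sensory organs, went both ways. MiR-96 was 2.80 higher in NTera-2 cells (SE 0.50, adjusted p = 0.0021), miR-182 was lower, at -1.51 (SE 0.26, adjusted p = 0.0020), and miR-183 (-0.43, adjusted p = 0.13) and miR-183* (0.30, adjusted p = 0.58) did not pass. MiR-1271, with the seed of miR-96 and a locus of its own, was among the largest differences of all. It crossed at 30.2, 30.3 and 29.2 in 2102Ep and at 23.2, 21.7 and 22.7 in NTera-2 cells, which made it 231-fold higher (7.85, SE 0.39, adjusted p = 1.9e-05).

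The largest positive difference was that of let-7b. It crossed at 29.3, 31.9 and 33.0 in 2102Ep cells, with a wide spread, and at 23.5, 23.1 and 23.6 in NTera-2 cells, a difference of 8.09 (SE 0.86, 273-fold, adjusted p = 0.00022). It was 9.10 without 2102Ep replicate 1 and 7.33 without 2102Ep replicate 3. It was the only member of the let-7 family with enough values for a test. Let-7c and let-7f-2* had a Ct in 2102Ep cells only (27.8, 30.7 and 30.3 for let-7c) and let-7g* in NTera-2 cells only. The miR-99, miR-100 and miR-125 families, which share clusters with let-7, went both ways: miR-99b* was 2.50 higher (SE 0.66, adjusted p = 0.012) and miR-125a-5p 1.90 higher (adjusted p = 0.0018). MiR-100* (-2.44), miR-100 (-1.33) and miR-125b (-1.11) were lower, and 3 of 8 did not pass.

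MiR-296, which was 120-fold higher in NTera-2 cells, had a small spread within each line. It crossed at 29.0, 29.4 and 29.2 in 2102Ep and at 23.0, 21.9 and 22.3 in NTera-2 cells (6.91, SE 0.23, adjusted p = 7.7e-06). Its other strand, miR-296-3p, had a Ct in NTera-2 cells only (31.0, 28.8 and 28.9). MiR-211, which lies in the melanocyte gene TRPM1, was 5.57 higher (SE 0.37, 47.6-fold, adjusted p = 4.1e-05). Both strands of miR-339 were higher, the 3p strand by 6.39 (SE 0.42, adjusted p = 4.0e-05) and the 5p strand by 4.66 (SE 0.37, adjusted p = 7.5e-05).

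The miR-29 family, which targets collagens and DNA methyltransferases, was higher in all 3 members, by 5.45 for miR-29b (SE 0.35, 43.7-fold), 3.80 for miR-29c (SE 0.21) and 1.44 for miR-29a (SE 0.32). MiR-29b crossed at 29.4, 30.1 and 29.2 in 2102Ep and at 24.2, 24.0 and 24.5 in NTera-2 cells (adjusted p = 4.0e-05). The members share 1 seed and lie in 2 clusters, on chromosomes 1 and 7. Against RNU44 and RNU48 miR-29a was at -0.10, and the other members stayed higher.

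**Figure D4:**
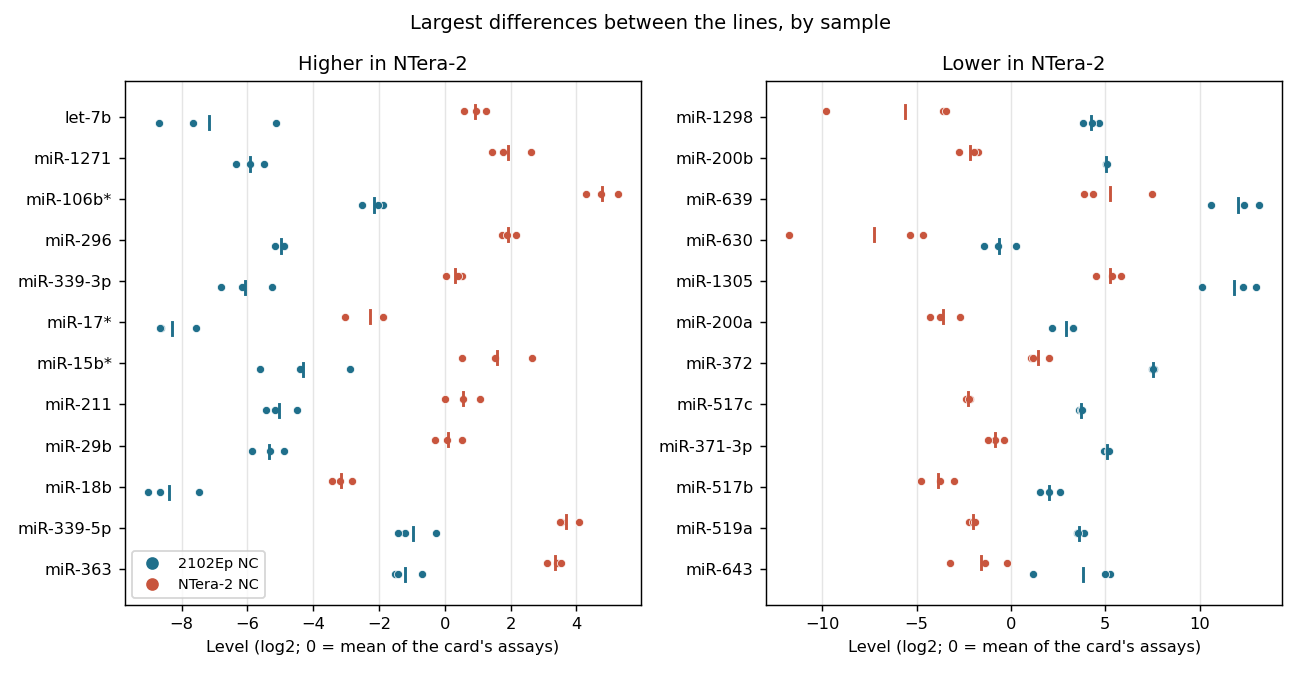
Level (log2, relative to the mean of the card's assays) in each NC sample of the 12 largest positive and the 12 largest negative differences that passed the test without overlap. Points are samples (blue 2102Ep, red NTera-2) and vertical bars are means of 3. The samples of miR-296, miR-200b, miR-372 and miR-517c lie close together within a line, and those of miR-1298, miR-630, miR-639 and miR-643 are spread over several units.

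The largest negative difference was that of miR-1298, with no overlap but a wide spread. It crossed at 20.4, 19.3 and 19.4 in 2102Ep and at 28.3, 34.1 and 28.0 in NTera-2 cells, where replicate 2 lay far from the others. The difference was -9.90 (SE 1.65, 954-fold lower, adjusted p = 0.0016). Without NTera-2 replicate 2 it was -7.81. MiR-1298 was the only member of the HTR2C cluster with an assay in the tables. MiR-630, which is induced by genotoxic stress, was -6.64 (SE 1.81, adjusted p = 0.014) and rested on a Ct of 36.2 in NTera-2 replicate 3 beside 29.3 and 29.7. Without that sample it was -4.40. MiR-639 and miR-1305 crossed in 2102Ep cells at 13.7, 10.9 and 11.3 and at 11.3, 13.9 and 11.4, earlier than U6 in these cells, and the differences were -6.81 (SE 1.07, adjusted p = 0.0013) and -6.57 (SE 0.76, adjusted p = 0.00031). In the siSOX2 samples miR-639 differed by -13.13. MiR-643 was -5.41 (SE 1.25, adjusted p = 0.0070).

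The imprinted DLK1-DIO3 cluster of chromosome 14, whose miRNAs come from the maternal allele and whose silencing marks poor stem cell lines in the mouse, was mostly lower in NTera-2 cells. Of 29 assays tested 17 were lower and 3 higher (median -1.69), and 13 further assays had a Ct in 2102Ep cells only. MiR-127, which is antisense to RTL1, crossed at 24.97, 25.25 and 25.01 in 2102Ep and at 30.13, 29.04 and 30.02 in NTera-2 cells, a difference of -4.53 (SE 0.29, 23.1-fold lower, adjusted p = 4.0e-05). The 3 higher assays were miR-770-5p (3.57, SE 0.63, adjusted p = 0.0021), miR-485-5p (3.13, SE 0.66, adjusted p = 0.0048) and miR-487b (2.82, SE 0.22, adjusted p = 7.5e-05). MiR-485-5p crossed at 17.5, 19.9 and 18.4 against 16.9, 14.7 and 15.1, while its other strand miR-485-3p differed by -0.65 and did not pass. MiR-433, miR-656 and mmu-miR-496 had a Ct in NTera-2 cells only. The 17 hairpins from MIR379 to MIR410 (chr14:101022066-101065991) had 18 assays, of which 12 were lower and 2 higher.

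On the X chromosome the list of the cluster within the CLCN5 gene held 6 assays tested, all higher (median 2.33). MiR-501 and miR-660 of it had a Ct in NTera-2 cells only. Both assays named miR-500, of the same cluster, were tested but were not matched to the list, so the count of 6 and the median leave them out. Their differences in the NC samples are not given here. In the siSOX2 samples, where the 6 were higher too, the miR-500 assays were at -0.94 (adjusted p = 0.30) and -0.63 (adjusted p = 0.092). MiR-362 crossed at 23.0, 24.6 and 24.7 against 21.1, 20.1 and 20.5, a difference of 3.64 (SE 0.43, adjusted p = 0.00035). The smallest difference of the 6, 0.86 for miR-532-3p (adjusted p = 0.037), was lost without 2102Ep replicate 1 or 3 or NTera-2 replicate 2 or 3. When RNU44 and RNU48 were the reference, 4 of the 6 stayed above 0 and 3 passed, while miR-532-3p (-0.68) and miR-502 (-0.24) turned. In the miR-506 and miR-888 clusters, active in testis and epididymis, miR-888 was -2.65 (SE 0.33, adjusted p = 0.00042). MiR-509-5p, at 26.1, 26.4 and 25.7 against 24.4, 25.7 and 24.0, was 1.54 higher with overlapping levels (adjusted p = 0.041), a call that did not hold without 5 of the 6 samples in turn, and was at -0.0045 with RNU44 and RNU48.

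Several families of broad expression were higher in NTera-2 cells relative to the average miRNA. All 6 assays of the miR-15 and miR-16 family, which acts on cyclins and BCL2, were higher (median 2.26), with miR-16 at 21.6, 21.3 and 21.8 against 19.04, 18.15 and 18.52 (3.12, SE 0.24, adjusted p = 6.8e-05). In the family of miR-130, miR-301 and miR-454 6 of 7 were higher, led by miR-301 (3.27, SE 0.36, adjusted p = 0.00027), and 5 of 6 in the miR-30 family (median 1.86). MiR-221 and miR-222, which repress the cell cycle inhibitor CDKN1B, and miR-222* were all higher, miR-222 by 2.48 (SE 0.22, adjusted p = 8.7e-05). All 4 assays of the tRNA-derived group, RNAs once annotated as miRNAs, were higher as well (median 3.01), with miR-1274B at 3.32 (SE 0.25, adjusted p = 6.6e-05).

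These smaller differences were near the shift between references. With RNU44 and RNU48 the medians were 0.63 for miR-15 and miR-16, 0.56 for miR-130, miR-301 and miR-454, -0.05 for miR-30, 0.19 for miR-221 and miR-222 (miR-222* at -0.95) and 0.67 for the tRNA-derived group. The clusters of miR-23, miR-27 and miR-24 had 3 of 4 higher (median 1.25), and 0 of the 4 stayed above 0 with RNU44 and RNU48. In the miR-34 and miR-449 family, which follows p53, miR-34a was -1.43 (adjusted p = 0.0034), and miR-34a* (1.47, adjusted p = 0.0039) and miR-34c (0.77, adjusted p = 0.036) were higher, both turning with RNU44 and RNU48 to -0.87 and -0.77. The call of miR-34c was lost when any sample but NTera-2 replicate 3 was left out. MiR-34b did not pass (-0.54), and miR-449b had a Ct in NTera-2 cells only. The assay named miR-449 was tested but was not matched to this list. In the siSOX2 samples it was 1.22 higher (adjusted p = 0.0083). MiR-135a was 3.91 higher (SE 0.28, 15.1-fold, adjusted p = 5.5e-05).

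MiRNAs of differentiated cell types were also measured, though Cts of different assays are not levels on a common scale. The 8 pluripotency markers had mean raw Cts of 16.2 to 20.4 in 2102Ep cells. Of the markers of differentiated types only miR-9 had a mean in that range, with samples at 18.3, 20.6 and 21.0. In NTera-2 cells the pluripotency markers ran from 13.9 to 25.2, the late ones being miR-372 and miR-371-3p. The latest of the others was miR-373, at 19.1, earlier than every marker of a differentiated type (21.3 or later). The 2 neural markers had mean raw Cts of 20.0 (miR-9) and 24.4 (miR-124) in 2102Ep and of 21.5 and 25.9 in NTera-2 cells. The 4 endoderm markers ran from 21.9 to 25.9 and from 21.7 to 26.4. Of the 3 blood markers miR-142-3p had no raw Ct in 2102Ep cells, and the means of the others were 22.9 and 26.5, while all 3 were measured in NTera-2 cells, at 25.4 to 28.2. The part of such cells in the other differences was not tested.

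Among 12 neural assays 3 were higher (miR-7*, miR-9* and the fly assay for miR-7) and 2 lower (miR-219 and miR-124), with a median of 0.01. Against RNU44 and RNU48 the fly assay turned from 1.52 to -0.83 (adjusted p = 0.044). Further, miR-124*, miR-129*, miR-129-3p and miR-219-2-3p had a Ct in NTera-2 cells only and miR-218-2* in 2102Ep cells only. MiR-7*, read by the rat assay, was 3.02 higher (SE 0.45, adjusted p = 0.00096). MiR-124, the miRNA of mature neurons, was -1.35 (SE 0.31, adjusted p = 0.0066). MiR-219, of oligodendrocytes, was -2.35 (adjusted p = 0.019), and this call was lost without 2102Ep replicate 1 or 2 or NTera-2 replicate 2 or 3. MiR-9 was spread over 18.3, 20.6 and 21.0 in 2102Ep cells and did not pass (-1.43, SE 0.65, adjusted p = 0.084).

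Of 5 endoderm assays 0 were higher and 2 lower. MiR-194, of liver and gut, crossed at 22.4, 21.4 and 22.0 against 25.6, 24.6 and 25.2 (-3.11, SE 0.35, adjusted p = 0.00027), and miR-375, of pancreatic islets, did not pass (-0.38, adjusted p = 0.23). Of 6 mesenchymal and muscle assays 3 were lower and 0 higher. MiR-145, of smooth muscle, was -1.93 (SE 0.28, adjusted p = 0.00095), its partner miR-143 had a Ct in 2102Ep cells only (26.7, 24.2 and 27.5), and miR-208b was -3.17 (SE 0.35, adjusted p = 0.00025). Of 5 blood assays 3 were lower and 1 higher. MiR-223, of myeloid cells, was -2.70 (SE 0.43, adjusted p = 0.0013), and miR-155, of activated lymphocytes, was -2.15 (SE 0.43, adjusted p = 0.0039). The higher one, miR-486 of red blood cells (1.30, adjusted p = 0.018), was at -0.25 with RNU44 and RNU48, and its call was lost without 2102Ep replicate 2 or 3 or NTera-2 replicate 1. In the HOX clusters miR-10b* was 1.28 higher (adjusted p = 0.0027) but at -1.07 with RNU44 and RNU48, miR-10b did not pass (-1.65), and miR-10a* and miR-196b had a Ct in 2102Ep cells only.

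Both strands of 1 hairpin were tested in 55 hairpins. In 32 of them both strands passed the test, 20 times with both higher, 7 times with both lower and 5 times in opposite directions. The strands lay over 2 apart on the log2 scale in 21 hairpins, and the median gap was 1.65. The hairpins with opposite strands were miR-135b, miR-149, miR-744, miR-34a and miR-148b, named after their values were seen. MiR-135b was at 21.1, 20.8 and 20.9 in 2102Ep and at 18.9, 17.9 and 18.3 in NTera-2 cells, thus higher by 2.70 (SE 0.23, adjusted p = 8.7e-05). MiR-135b* was at 20.7, 20.9 and 19.9 against 23.0, 21.7 and 22.8, a difference of -1.46 (SE 0.36, adjusted p = 0.0091). MiR-149 was 2.07 higher (adjusted p = 0.00019) and miR-149* was at -2.45 (adjusted p = 0.0021). Against RNU44 and RNU48 miR-135b and miR-149 stayed above 0 (1.16 and 0.53), while miR-744 (0.93 before) was at -0.61 and miR-148b* (1.04 before) at -1.31. The 2 assays that are both named miR-629 also went apart, by 3.25 (SE 0.45, adjusted p = 0.00073) for that of card B and by -2.05 (SE 0.28, adjusted p = 0.00073) for that of card A.

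Of the 20 hairpins with both strands higher, the minor or 3p strand differed more in 13 and less in 7, and more in 9 against RNU44 and RNU48. The widest gaps were those of miR-106b, miR-17 and miR-15b. MiR-106b* was at 26.1, 26.5 and 25.7 against 20.3, 19.1 and 19.7 (6.91, SE 0.33, adjusted p = 1.9e-05), and its main strand miR-106b at 21.9, 21.8 and 22.1 against 19.9, 18.9 and 19.3 (2.69, SE 0.22). In 2102Ep cells the minor strand thus crossed well after the main strand, and in NTera-2 cells the strands crossed at close cycles. MiR-17* differed by 6.02 (SE 0.46) beside 2.34 for miR-17, and miR-15b* by 5.87 (SE 0.81) beside 2.47 for miR-15b. Only 10 of the 55 hairpins had both strands on 1 card, so that most gaps compare values of 2 cards, each set to its own mean. The gaps themselves were not tested.

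**Figure D5:**
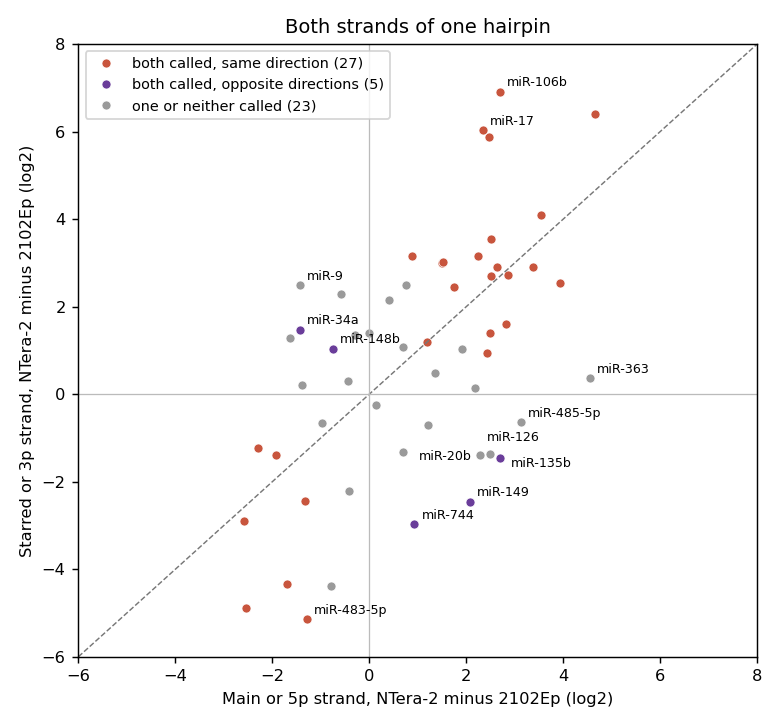
NTera-2 minus 2102Ep difference (log2) of the main or 5p strand (horizontal) and of the starred or 3p strand (vertical) for 55 hairpins with both strands tested, with the line of equality dashed. In 27 hairpins both strands passed in the same direction and in 5 in opposite directions, and labels mark these 5 and those with the widest gaps.

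Assays with a Ct in all 3 samples of one line and in none of the other numbered 46 for 2102Ep and 64 for NTera-2 cells. They have no difference that could be fitted. Their mean raw Ct was 30 or less in 39 and 59 of them, so most were not at the edge of detection. For miR-892b, of the miR-888 cluster, the table gave a Ct of 40 in NTera-2 cells, beside 15.9, 16.5 and 17.0 in 2102Ep cells. For the other 45 and for all 64 the cell was blank, which says only that no Ct was given, so no fold is stated. The strongest after miR-892b in 2102Ep cells were miR-1262, miR-573, miR-525-3p, miR-10a* and miR-521, at mean raw Cts of 19.01 to 22.99. In NTera-2 cells miR-609 (6.41), miR-23b* (7.09) and miR-497 (9.16) came before U6, followed by miR-580 (16.7), miR-25* (19.5) and mmu-miR-187 (20.1). By group, the assays of C19MC (16) and DLK1-DIO3 (13) made up most of the 46 in 2102Ep cells.

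The 6 siSOX2 samples, which the comparison above did not use, gave the same contrast between the lines after the siRNA against SOX2. SOX2 mRNA is not measured by these cards, so its knock-down was not checked here. Of 384 assays tested there, 291 (75.8%) passed, 159 (41.4%) higher and 132 (34.4%) lower in NTera-2 cells. Of the 151 higher and 127 lower NC calls, 139 and 107 passed in the same direction, 31 did not pass and 1 passed in the opposite direction. That was miR-210, which is induced in hypoxia, with -0.97 in NC (SE 0.24, adjusted p = 0.0096) and 1.63 in siSOX2 samples (adjusted p = 0.0051). The median gap between both differences of an assay was 0.53. MiR-181a-2* went from 2.77 (adjusted p = 0.00041) to -0.52 (adjusted p = 0.20), and miR-96 from 2.80 to 6.17. In the C19MC list 18 assays were lower and 1 higher among siSOX2 samples too, and in the miR-302 cluster all 9 were higher. Whether single differences changed with SOX2 was not tested here.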

How the data were processed

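Total RNA of 3 NC samples of each hECC line was reverse-transcribed and pre-amplified with Megaplex primer pools A and B and run on TaqMan array cards A and B by the authors. They deposited raw Ct values and dCt values, both on the log2 scale, and a table of fold ratios and p-values of their own comparisons, which was not used here. The raw Ct was used, with blanks and values of 40 taken as unmeasured. The card of an assay was read from raw Ct minus dCt, which is constant within a sample and card to 0.02 cycles. Part of the raw column of 2102Ep siSOX2 replicate 3 was out of step with its assay names and was rebuilt from dCt plus that constant.

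Each Ct was set against the sample's mean per card over assays measured in all samples of the comparison. Assays measured in at least 2 of 3 samples of each line were tested with limma 3.58.1 (lmFit and eBayes, two-sided, R 4.3.3) on the 6 samples of the comparison, with Benjamini-Hochberg adjustment over all assays tested and a call at 0.05. The script was tested on simulated data. Tables were made with Python 3.11.15, pandas 2.3.3 and numpy 2.4.6. P-values set a difference of line means against the spread between these samples, with the variance of each assay moderated by that of all assays. An exact permutation test of 3 against 3 samples cannot go below a p of 0.1, so none is given. The median SE of a difference was 0.34 and the highest 1.81, and 3 samples a line limit the precision. Pre-amplification can change the proportion between miRNAs, and Cts of different assays are not levels on 1 scale.

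Assays and the 30 lists were chosen with earlier results of these data known. Named were the 12 largest differences per side without overlap among called assays measured in all samples, the other strand of their hairpins, up to 6 assays per line measured in that line only and the 5 earliest per line. Of each list every assay was named where 6 or fewer were tested, otherwise those with the largest and smallest difference and the lowest Ct. Other assays were named after their values were seen. Other references, filters, tests, the replicate number as a block and each sample left out were tried. Control assays were left out of the tests, and no list or sample was left out for its values.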

Additional observations from a re-analysis of the deposited data

How the results depend on the processing

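Every alternative run on both cards kept the count of called assays within 1.5 times the 278 reported, and the named assays kept their direction under each of those that did not move all assays together. A steady count does not show that directions were steady. The deposited dCt gave 370 calls, with 137 of the 278 of the other sign, and RNU44 and RNU48 gave 282, with 47 of the other sign. The count was 286 with the median per card or 1 mean for both cards, 278 with a mean Ct limit of 35 or 32 or with complete assays only, 282 with a trend in eBayes, 250 and 217 with equal-variance and unequal-variance tests of each assay, 298 with all 12 samples in the fit and 387 of 497 with unmeasured values set to 40. Leaving out 1 sample gave 255 to 286, and 268 to 288 for the 291 of the siSOX2 samples. As alternatives chosen after seeing the data, leaving out Cts under 15 gave 269 of 374, taking blank Cts from dCt 279 of 386 and no reference at all 275. With U6, RNU44 and RNU48 or dCt as the reference and the median of each card set back to its main value, 168 (of the 233 assays of card A), 267 and 275 were called. Setting the medians back brings the differences near the main ones by construction, so these counts are no test of the reference. Under the alternatives that did not move all assays together, 0 of 117 named assays reversed and 18 lost their call in some alternative. Against RNU44 and RNU48, which did move all assays, some named higher calls turned, as given above. Among the 18 that lost their call were miR-302b*, miR-34c, miR-509-5p, miR-27a*, miR-219, miR-532-3p, miR-486, miR-144* and miR-141*, each without 1 or more of the samples. The cause was not tested. MiR-1298, miR-630, miR-643 and miR-155 lost it only with the separate tests of each assay. The assays measured in one line only numbered 110 with the limit at 38 or 35, 113 with 2 of 3 samples, and 110 to 111 without 1 sample.

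The labels give both lines the replicate numbers 1 to 3. Deviations from the line means of samples with the same number correlated with r = 0.0112, -0.0305 and 0.0852 across assays. Samples with different numbers correlated with r = -0.0772 to 0.0627. The labels do not say what a number stands for, and so few pairs cannot show whether samples shared a run. With the replicate block 276 assays were called, and 295 among the siSOX2 samples. U6 and RNU44 with RNU48 as the reference were not run for the siSOX2 samples, whose control values were not recovered in 1 of them. No bound on a fold at a Ct of 40 was computed for assays measured in 1 line, since a blank is no Ct of 40.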

Other observations

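Some assays crossed earlier than is usual for a miRNA. Raw Cts under 15 included miR-609 (4.9, 6.3 and 8.0), miR-23b* (6.9, 7.5 and 6.9) and miR-497 (8.0, 10.7 and 8.8) in NTera-2 cells, none of which had a Ct in 2102Ep cells. In 2102Ep cells let-7f (mean raw Ct 6.41) and miR-199b (11.2) were measured in 2 of 3 samples, and neither had a Ct in NTera-2 cells, so they were not tested, and miR-639 (13.7, 10.9 and 11.3) came before U6 (14.8 to 14.9). What these assays amplified was not tested.

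Raw Ct and dCt did not always hold the same assays. For miR-142-3p and miR-586 the raw Ct of all 2102Ep NC samples was blank while a dCt was given, and these were not counted as measured in NTera-2 cells only.

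By chromosome, 26 assays with 1 matched hairpin on the X chromosome included 16 higher and 4 lower calls, and the 11 of chromosome 9 included 9 higher and 0 lower. Chromosome 19 had 5 higher and 17 lower of 30, and chromosome 14 had 6 higher and 15 lower of 28. These counts are descriptions without a test, and neighbouring hairpins share transcripts.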
